A study of Mus musculus with 6 samples.

Results

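Spindle assembly and cytokinesis were followed through 10 genes, Tpx2, Nusap1, Prc1, Hmmr, Anln, Ect2, Racgap1, Top2a, Mki67 and Ckap2, taken by gene name from the 56748 genes of the deposited expression table. Each name matched a single row, and all 10 genes were lower in cells carrying an Fbxw11 vector than in cells carrying the control vector. Mean levels in the Fbxw11 cells lay between 58.7% of control for Mki67 and 73.6% of control for Tpx2. The cells were RAW264.7, a mouse macrophage-like line grown from a virus-induced tumour. One group of 3 libraries came from cells infected with lentivirus carrying Fbxw11, on a plasmid named pMSCV-Fbxw11-pGk-GFP, and the other group of 3 from cells infected with virus carrying the control vector. Both groups were sorted before RNA extraction, and the control libraries are named GFP in the labels. The labels leave out the rest of the control plasmid, the sort gate and the time after infection. Fbxw11 encodes an F-box protein that brings substrates to the SCF ubiquitin ligase, and macrophage polarization is the question named in the series title. The labels do not say whether replicate libraries came from separate cultures; if they did not, the p-values rest on technical spread alone.

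These genes act late in the cell cycle. Before division, microtubules grow from centrosomes and around chromosomes into a bipolar spindle, while the chromosomes are untangled and coated. After the chromosomes part, antiparallel microtubules bundle into a central spindle, which directs a ring of actin and myosin to pinch the cell apart. Many of the transcripts are made mainly in cells approaching or passing through mitosis, so their level in bulk RNA is widely used as a measure of proliferation. In bulk RNA, fewer dividing cells and less RNA per dividing cell cannot be told apart.

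Many genes of late cell cycle share promoter elements, and the promoters of the members were read to see whether these do. The CHR (cell cycle genes homology region) is known to be bound by MuvB complexes, which repress these genes in resting cells and activate them with B-MYB and FOXM1 in dividing cells. The CCAAT box is known to be bound by the factor NF-Y. RefSeq promoter windows on GRCm38.p6, running from 250 bases before to 50 bases after the annotated start, were matched for 9 members, all but Tpx2. The windows of Prc1 (chr7:80294201-80294480, plus strand), Racgap1 (chr15:99651627-99651906, minus strand), Ect2 (chr3:27153825-27154104, minus strand), Hmmr (chr11:40733408-40733687, minus strand), Top2a (chr11:99024160-99024439, minus strand) and Mki67 (chr7:135716350-135716629, minus strand) are shown because they span the range of change and differ in how many matches they hold. Each is printed 5′ to 3′ in the direction of transcription and ends 30 bases after the start. Every printed window holds both a CHR match and a CCAAT box. The windows of Nusap1, Anln and Ckap2 are not printed. Those of Nusap1 and Anln lack the CCAAT box, so the presence of both elements in every printed window is set by this choice. Capitals mark the CHR, spelled TTTGAA or, on the other strand, TTCAAA. They also mark a CHR variant, the palindrome TTCGAA, and the CCAAT box, spelled CCAAT or, on the other strand, ATTGG.
Prc1: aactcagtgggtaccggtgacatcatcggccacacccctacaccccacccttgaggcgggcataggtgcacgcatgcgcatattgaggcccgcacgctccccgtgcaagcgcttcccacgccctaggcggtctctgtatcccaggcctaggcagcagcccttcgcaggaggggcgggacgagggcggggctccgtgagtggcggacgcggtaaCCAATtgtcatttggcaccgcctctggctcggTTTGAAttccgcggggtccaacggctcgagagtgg
Racgap1: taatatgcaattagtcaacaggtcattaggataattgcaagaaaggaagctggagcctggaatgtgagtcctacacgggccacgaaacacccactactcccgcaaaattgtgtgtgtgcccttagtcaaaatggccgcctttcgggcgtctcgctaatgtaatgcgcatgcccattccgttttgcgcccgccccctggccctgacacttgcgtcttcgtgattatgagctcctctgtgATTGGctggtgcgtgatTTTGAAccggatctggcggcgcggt
Ect2: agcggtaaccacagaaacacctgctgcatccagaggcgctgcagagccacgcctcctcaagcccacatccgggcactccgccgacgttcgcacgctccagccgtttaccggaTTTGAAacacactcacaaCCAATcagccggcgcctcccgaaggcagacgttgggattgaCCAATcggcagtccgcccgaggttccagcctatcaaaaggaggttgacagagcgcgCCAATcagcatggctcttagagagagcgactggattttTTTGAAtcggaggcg
Hmmr: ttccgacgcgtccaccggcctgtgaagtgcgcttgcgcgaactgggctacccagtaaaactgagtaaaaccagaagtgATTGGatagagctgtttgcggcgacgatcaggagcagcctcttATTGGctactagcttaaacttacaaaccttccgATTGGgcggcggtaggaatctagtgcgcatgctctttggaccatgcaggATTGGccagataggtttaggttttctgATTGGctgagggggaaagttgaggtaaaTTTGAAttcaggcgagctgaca
Top2a: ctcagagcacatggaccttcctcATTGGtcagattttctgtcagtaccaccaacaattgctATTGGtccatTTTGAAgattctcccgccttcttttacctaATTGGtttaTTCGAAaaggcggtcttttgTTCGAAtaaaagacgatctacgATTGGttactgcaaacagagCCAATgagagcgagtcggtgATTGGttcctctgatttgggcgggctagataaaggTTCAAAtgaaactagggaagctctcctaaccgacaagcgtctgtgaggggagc
Mki67: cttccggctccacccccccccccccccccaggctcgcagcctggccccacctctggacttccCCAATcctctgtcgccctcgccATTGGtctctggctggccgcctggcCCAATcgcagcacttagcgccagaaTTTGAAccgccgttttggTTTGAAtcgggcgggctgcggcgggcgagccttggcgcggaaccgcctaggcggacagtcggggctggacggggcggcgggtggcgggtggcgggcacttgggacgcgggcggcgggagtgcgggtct

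At least 1 CHR match was present in 8 of the 9 members with a window, and 7 of the 9 also held a CCAAT box. Of all 32851 promoter windows of the same length, of which a gene can have several, 17.9% held TTTGAA on either strand, 37.4% held CCAAT on either strand and 6.95% held both. The variant TTCGAA was present in 1.56% of all windows and, among the members, in Top2a, which held 2 copies beside 2 CHR matches and 6 CCAAT boxes. No match overlapped another. In Hmmr 5 CCAAT boxes, all on the strand opposite to transcription, preceded a CHR match at bases 9 to 14 after the start. Racgap1 held a single CCAAT box at bases -12 to -8 and a CHR match at bases 6 to 11. Mki67 held 3 CCAAT boxes followed by 2 CHR matches, at bases -116 to -111 and -98 to -93. Anln held 2 CHR matches after the start and no CCAAT box, and the window of Nusap1 held neither set of letters. Ckap2 held a CHR match at bases -101 to -96, upstream of a single CCAAT box. A match of these letters is a description of the window and was not tested as a binding site.

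**Figure D1:**
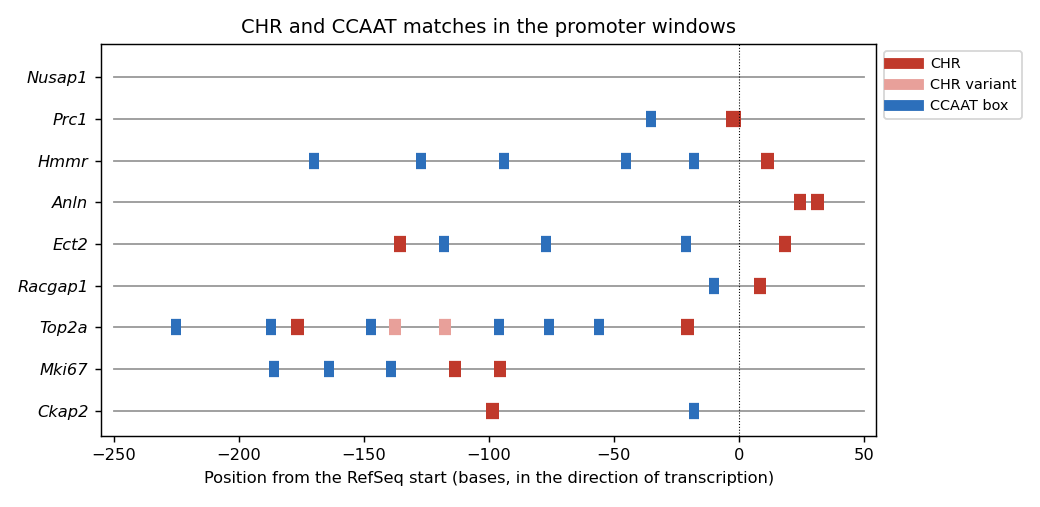
Positions of the CHR (TTTGAA, red), the CHR variant (TTCGAA, pale red) and the CCAAT box (blue), on either strand, in the RefSeq promoter window of each of 9 members. The x axis is the distance in bases from the annotated start, with the window running from 250 bases before to 50 bases after it, and for Prc1 and Ect2 the first of 2 overlapping windows is drawn. CHR matches are present in each gene but Nusap1, and CCAAT boxes in each but Nusap1 and Anln.

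Among the 7890 tested genes with a window, matched by symbol, 14.6% held a CHR match in at least 1 window. The share was 25.3% among the 388 that fell, members included, 15.6% among the 372 that rose and 14.01% among the 7130 that did not pass. Both elements together were present in 17.5% of those that fell, 5.11% of those that rose and 5.48% of the rest. A CCAAT box alone or with a CHR was present in 43.1% of tested genes and 54.4% of those that fell. Of the other pathway genes listed below, 38 with a window fell, and 60.5% of them held a CHR match and 39.5% both elements. Among the 64 that did not pass, the shares were 26.6% and 12.5%. These 2 sets also differ in role, since falls made up 78.6% of the central spindle list and 0% of the abscission list. The shares were not compared within a list. These shares are descriptions with no test, and the members were chosen with the fall of cell cycle genes in these libraries already known.

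Levels are in FPKM, which the authors computed from fragment number, gene length and library size. Their divisor was not the plain sum of reads recovered from the table. It was larger against that sum in control than in Fbxw11 libraries. Between 16191971 and 18951653 reads per library were recovered from the table, and each member rested on at least 196 reads in each library, the lowest being Ckap2 and the highest Mki67 with up to 4268. Fbxw11 itself stood at 35.8, 36.5 and 36.0 FPKM in control libraries 1 to 3, against 274, 272 and 268 FPKM in Fbxw11 libraries 1 to 3, and was thus high in each library labelled Fbxw11. Transcripts of the vector and of the endogenous gene are counted together in these values. All 8 macrophage markers examined (Csf1r, Adgre1, Itgam, Cd68, Lyz2, Cd14, Ptprc and Spi1) were above 1 FPKM in each library. Their summed level was higher in the Fbxw11 group without overlap, at 4168 to 4341 FPKM in control and 4617 to 4743 FPKM in Fbxw11 libraries. A sum is set mostly by its most abundant genes, and the change of each marker is not reported here. The authors' divisor also raised FPKM in the Fbxw11 libraries against plain read sums. The share of tested genes with every Fbxw11 library above every control library was not counted. None of 5 T cell, 4 epithelial or 4 fibroblast markers reached 1 FPKM in a library, and of 4 endothelial markers Pecam1 alone did. The 5 B cell markers each reached 1 FPKM in at least 1 library, and their summed level ran from 7.19 to 8.04 FPKM in control and from 5.45 to 7.26 FPKM in Fbxw11 libraries. The part of either marker sum in the results was not tested. Within groups, no pair of libraries agreed within sampling noise, with a chi-square per degree of freedom of 2.60 and 3.50 between libraries 1 and 2 and of 5.08 to 6.80 for pairs that held library 3 of either group, which therefore stood somewhat apart.

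All 10 members were past the threshold and lower in the Fbxw11 libraries, with limma's test across the 10898 genes that averaged at least 1 FPKM and a Benjamini-Hochberg adjusted p threshold of 0.05. The background for falls was 4.64% of the genes tested (506 genes), beside 4.6% that rose and 9.24% called in either direction. The count of genes called either way was 448 and 409 when control library 1 or 2 was left out, and 567 and 533 when Fbxw11 library 1 or 2 was. No member's groups overlapped, where every Fbxw11 library was below every control library for 15.5% of tested genes. The median log2 fold change of the members was -0.54, against 0.00 for all tested genes. Without library 3 of both groups, 9 of the 10 members passed, Prc1 being the exception. Summed over the 10 genes, the level was 113, 113 and 110 FPKM in control libraries 1 to 3, against 71.7, 73.6 and 75.2 FPKM in Fbxw11 libraries 1 to 3.

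**Figure D2:**
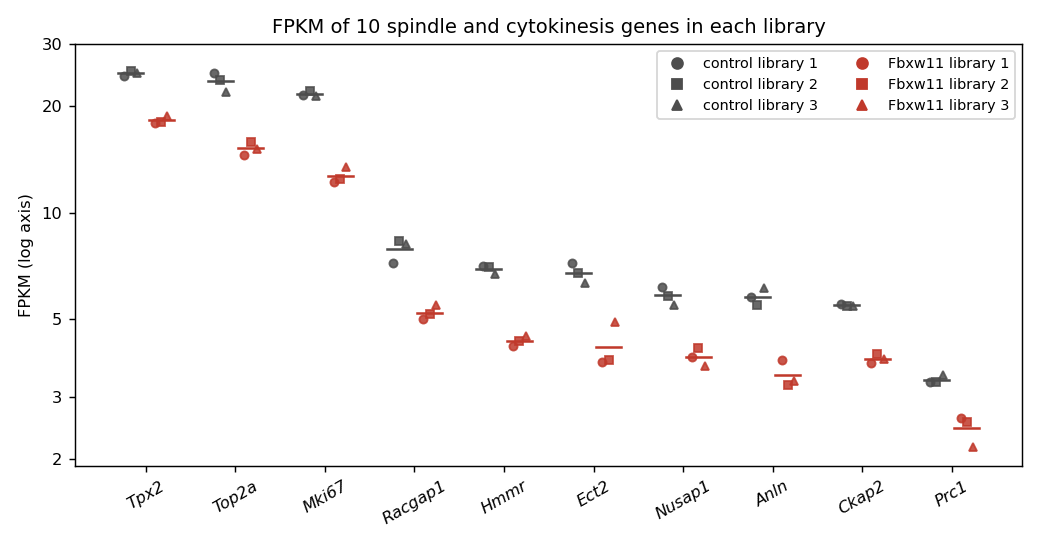
FPKM (log axis) of the 10 members in each of the 6 libraries, ordered by their control mean, with control in grey, Fbxw11 in red, a marker shape for each library number and a bar at each group mean. The red points lie below the grey points for every gene, with the narrowest distance in FPKM for Prc1 (3.31 in the lowest control and 2.62 in the highest Fbxw11 library).

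The first role is spindle building. Tpx2 is released from importins around chromosomes, nucleates microtubules there and activates the kinase Aurora A. It was the most abundant member, at 24.4, 25.1 and 24.9 FPKM in control libraries 1 to 3, against 17.97, 18.1 and 18.7 FPKM in Fbxw11 libraries 1 to 3. The libraries of a group lay close together and the groups were far apart, with a log2 fold change of -0.42 (SE 0.033, limma adjusted p = 0.00134) and a 1.36-fold difference in mean FPKM, the smallest fold of the 10. Nusap1, which stabilizes and bundles spindle microtubules, stood at 6.17, 5.82 and 5.48 FPKM in the control libraries, against 3.89, 4.14 and 3.67 FPKM in the Fbxw11 libraries. Control library 3 and Fbxw11 library 3 were the lowest of their groups, and the gene fell by 0.48 on the log2 scale (SE 0.060, limma adjusted p = 0.00595). Nusap1 overlaps Oip5, a centromere gene on the opposite strand, which stood at 4.68 ± 0.360 FPKM in the control libraries, against 2.84 ± 0.757 FPKM in the Fbxw11 libraries (SD, n = 3, limma adjusted p = 0.05004, just outside the threshold). No source used here says whether the counting used strand, so reads of the overlap cannot be told apart.

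Hmmr, a hyaluronan receptor that also binds microtubules at spindle poles, stood at 7.04, 7.02 and 6.71 FPKM in control libraries 1 to 3, against 4.19, 4.33 and 4.48 FPKM in Fbxw11 libraries 1 to 3. Every Fbxw11 library was more than 2 FPKM below the lowest control library (limma log2 fold change -0.57, 95% interval -0.68 to -0.47, adjusted p = 0.00126). Ckap2, a microtubule-stabilizing protein of the spindle, was the most even member in control, at 5.52, 5.45 and 5.43 FPKM. It stood at 3.74, 3.97 and 3.85 FPKM in Fbxw11 libraries 1 to 3, and the groups did not overlap. The gene fell by 0.41 on the log2 scale (SE 0.042, limma adjusted p = 0.00323).

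The second role is the central spindle and the signal for cleavage. Prc1, which crosslinks antiparallel microtubules of the central spindle, was the least abundant member, at 3.31, 3.31 and 3.47 FPKM in the control libraries, against 2.62, 2.55 and 2.17 FPKM in the Fbxw11 libraries. Fbxw11 library 3 was the lowest of the 6, while the control libraries were nearly equal. Its log2 fold change was -0.34 (SE 0.068, limma adjusted p = 0.0273). This call was the least secure of the 10. The adjusted p was 0.0876, 0.0907 and 0.0793 without control library 1, 2 or 3, and 0.0507 and 0.0676 without Fbxw11 library 1 or 2. Prc1 also overlaps Rccd1 on the opposite strand, which averaged 1.43 ± 0.169 FPKM in the control libraries, against 1.27 ± 0.0803 FPKM in the Fbxw11 libraries (SD, n = 3, limma adjusted p = 0.509).

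Racgap1, a GTPase-activating protein, forms the centralspindlin complex with the kinesin Kif23. It stood at 7.21, 8.32 and 8.14 FPKM in the control libraries, against 4.99, 5.15 and 5.46 FPKM in the Fbxw11 libraries, with control library 1 the low one of its group and no overlap between groups. The gene fell by 0.52 on the log2 scale (SE 0.062, limma adjusted p = 0.00512). Ect2, the exchange factor that centralspindlin recruits to activate RhoA at the cell equator, stood at 7.20, 6.73 and 6.30 FPKM in control libraries 1 to 3. In Fbxw11 libraries 1 to 3 it stood at 3.76, 3.83 and 4.90 FPKM, and library 3 lay apart from the other 2. Its log2 fold change of -0.59 had the widest error of the members (SE 0.095, limma adjusted p = 0.0135). The adjusted p was 0.0576 and 0.0586 without control library 1 or 2, and 0.0501 and 0.0535 without Fbxw11 library 1 or 2, so the call was lost each time, and it was 0.00720 without Fbxw11 library 3. Anln, the scaffold that links RhoA, actin, myosin and septins in the ring, stood at 5.76, 5.46 and 6.11 FPKM in the control libraries, against 3.82, 3.24 and 3.33 FPKM in the Fbxw11 libraries. Fbxw11 library 1 was the highest of its group here, yet it lay 1.64 FPKM below the lowest control library (limma log2 fold change -0.60, SE 0.067, adjusted p = 0.00399).

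The third role is the mitotic chromosome. Top2a, the topoisomerase that separates intertwined sister DNA, stood at 24.9, 23.7 and 22.0 FPKM in the control libraries, against 14.5, 15.9 and 15.1 FPKM in the Fbxw11 libraries. Control library 3 was the low one of its group and still lay 6.09 FPKM above the highest Fbxw11 library (limma log2 fold change -0.60, SE 0.056, adjusted p = 0.00234). Mki67 encodes Ki-67, which coats mitotic chromosomes and keeps them apart and is the protein most used to stain dividing cells. It stood at 21.5, 22.1 and 21.4 FPKM in control libraries 1 to 3, against 12.2, 12.5 and 13.5 FPKM in Fbxw11 libraries 1 to 3. The log2 fold change was -0.73 (SE 0.045, limma adjusted p = 0.000669). The groups lay 7.93 FPKM apart, the widest distance of the 10, and 36 of the 10898 tested genes had a lower log2 fold change.

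Of the 10 log2 fold changes that of Mki67 was the lowest, with a 95% interval of -0.83 to -0.62 on the log2(FPKM + 1) scale. This interval did not overlap those of Tpx2 (-0.50 to -0.34), Ckap2 (-0.52 to -0.31) and Prc1 (-0.50 to -0.18), though the difference between members was not tested. With 0.1 FPKM added instead of 1, Mki67 (-0.77, SE 0.047) and Prc1 (-0.45, SE 0.089) lay closer together with larger errors. The separation from Prc1 thus depends on the number added. The added 1 FPKM shrinks the change of the less abundant genes, and as a ratio of mean FPKM the falls ran from 1.36-fold for Tpx2 through 1.37-fold for Prc1, 1.42-fold for Ckap2 and 1.49-fold for Nusap1 to 1.67-fold for Anln and 1.70-fold for Mki67. Among all tested genes, between 36 and 430 had a lower log2 fold change than a given member, the highest number being that for Prc1. Within groups, control library 3 was the lowest for 6 of the 10 members and Fbxw11 library 1 the lowest for 7 of the 10.

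**Figure D3:**
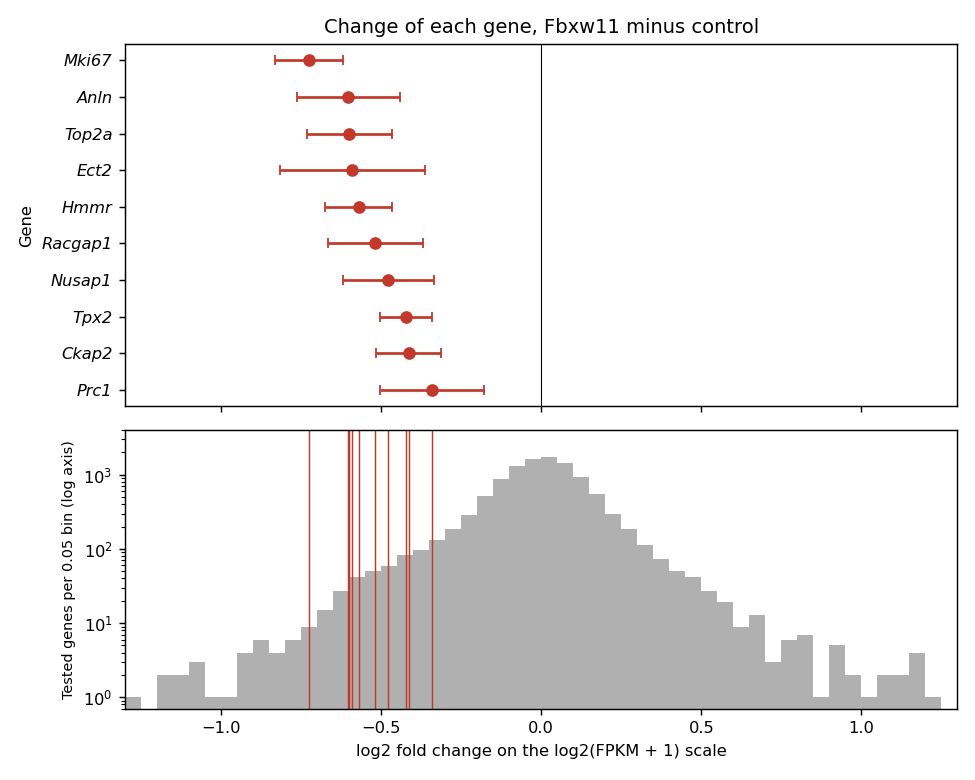
Upper panel, log2 fold change of each member (Fbxw11 minus control, log2(FPKM + 1) scale) with its 95% interval from limma; lower panel, the number of tested genes in bins of log2 fold change on a log axis, with a red line for each member and genes beyond the drawn range left out. All 10 intervals lie below 0, and the members lie between -0.73 and -0.34 while the median of all tested genes is 0.00.

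FPKM, a level per gene length, put the members in nearly the same order in both groups. Tpx2, Top2a and Mki67 formed an upper tier and Prc1 was last. In control the ranges of Tpx2 and Top2a overlapped, as did those of Top2a and Mki67, so their order there was within the spread. In the Fbxw11 libraries the same 3 genes did not overlap and stood at 18.3 ± 0.409, 15.2 ± 0.673 and 12.7 ± 0.668 FPKM (SD, n = 3). Of the lower members, the ranges of Hmmr and Ect2 overlapped in both groups, as did those of neighbours in the order among Nusap1, Anln and Ckap2.

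Several members work in pairs, and the ratio of their FPKM was taken in each library. Of 7 pairs chosen by role, 5 had ratios that overlapped between groups. Racgap1 to Kif23, the 2 parts of centralspindlin, was 1.61 ± 0.152 in control and 1.71 ± 0.133 in Fbxw11 libraries (SD, n = 3, exact permutation test, two-sided, p = 0.5). Tpx2 to Aurka, the gene of Aurora A, was 2.68 ± 0.131 and 2.52 ± 0.150 (exact permutation p = 0.300), with Aurka itself falling from 9.26 ± 0.478 to 7.24 ± 0.401 FPKM (limma adjusted p = 0.0183). Aurka lost its call without control library 1 or 2 or Fbxw11 library 1 or 3 (adjusted p = 0.0540, 0.0607, 0.0608 and 0.0507). Prc1 to Kif4, the kinesin that binds Prc1 on the central spindle, was 0.564 ± 0.00209 and 0.629 ± 0.0984 (exact permutation p = 0.400). Ect2 to Racgap1 was 0.861 ± 0.121 and 0.799 ± 0.0869, and Anln to Ect2 was 0.860 ± 0.0954 and 0.848 ± 0.168 (exact permutation p = 0.5 and 1).

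For the other 2 pairs the ratios did not overlap. Top2a to Top2b, the paralog that is also made in resting cells, was 2.04, 1.99 and 1.90 in control libraries 1 to 3, against 1.37, 1.52 and 1.32 in Fbxw11 libraries 1 to 3. Top2b stood at 11.9 ± 0.319 FPKM in the control libraries, against 10.8 ± 0.519 FPKM in the Fbxw11 libraries (SD, n = 3, limma adjusted p = 0.160). The ratio of Ckap2 to its paralog Ckap2l was 0.629, 0.672 and 0.593 in control and 0.741, 0.806 and 0.727 in Fbxw11 libraries, higher in each of the latter. The exact permutation p was 0.1 for each of these pairs, the smallest that 3 against 3 libraries allows, and 0.350 adjusted over the 7 pairs. Aurka and Top2b lie outside the rule that chose the other named genes.

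**Figure D4:**
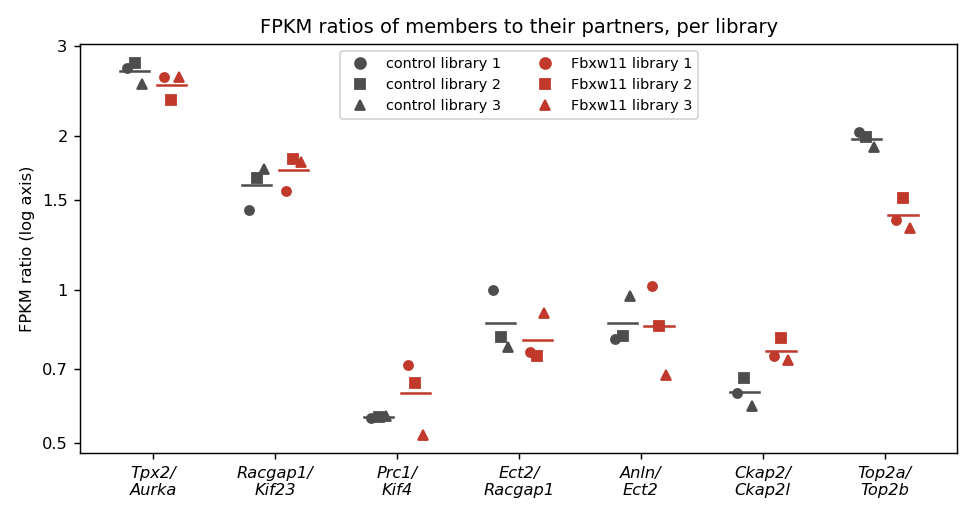
Ratio of FPKM (log axis) for 7 pairs of a member and its partner in each library, with control in grey, Fbxw11 in red and a bar at each group mean. The groups are apart for Ckap2/Ckap2l, higher in Fbxw11 libraries, and for Top2a/Top2b, lower in Fbxw11 libraries, and overlap for the other 5 pairs.

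The other genes of the pathway were taken from 8 lists drawn up by role. Of 133 tested genes outside the members 48 fell, 2 rose and 83 did not pass, with a median log2 fold change of -0.13, so 36.1% fell where 4.64% of all tested genes did. The lists were drawn up knowing that cell cycle genes fell in these libraries. Without control library 2 the falls numbered 31. No gene of these lists rose on the TPM scale, over plain read sums, without the filter on low values or when any single library but Fbxw11 library 3 was left out. Of 14 central spindle and chromosomal passenger genes 11 fell and 0 rose (median -0.42). Cep55, which recruits the abscission machinery to the midbody, fell from 9.30 ± 0.0692 to 5.78 ± 0.243 FPKM (SD, n = 3, limma adjusted p = 0.00102). Kif23 fell from 4.92 ± 0.180 to 3.04 ± 0.170 FPKM, Kif4 from 5.97 ± 0.151 to 3.92 ± 0.244 FPKM, and Cdca8, the passenger subunit borealin, from 9.63 ± 0.0246 to 6.82 ± 0.386 FPKM.

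Of 27 spindle assembly partners 17 fell and 0 rose (median -0.26). Stmn1, which binds free tubulin and is switched off in mitosis, fell from 25.5 ± 1.14 to 15.8 ± 0.214 FPKM (SD, n = 3, limma adjusted p = 0.000724). Ckap2l fell from 8.68 ± 0.530 to 5.09 ± 0.186 FPKM, Kif11, the motor that pushes spindle poles apart, from 9.15 ± 0.137 to 6.004 ± 0.281 FPKM, and Dlgap5, of the chromosome-bound spindle fibres, from 6.80 ± 0.0506 to 4.61 ± 0.105 FPKM. Of 16 genes of the γ-tubulin and augmin complexes, which nucleate microtubules in and outside mitosis, 5 fell and 0 rose (median -0.11). The augmin gene Haus6 fell from 10.3 ± 0.341 to 7.31 ± 0.535 FPKM (limma adjusted p = 0.00651). Other calls were lost when single libraries were left out. Haus8 lost its call whichever library was left out (adjusted p = 0.0538 to 0.104). Haus4 lost it without control library 2 or 3 or Fbxw11 library 1 or 3 (0.0839, 0.0646, 0.0756 and 0.0603), and the γ-tubulin complex gene Tubgcp2 without control library 1 or 2 or Fbxw11 library 2 (0.0578, 0.0579 and 0.0516).

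Of 16 partners at the chromosome surface and in DNA topology 8 fell and 0 rose (median -0.41). Condensin genes led them. Ncapg2 fell from 10.8 ± 0.0853 to 6.78 ± 0.120 FPKM (SD, n = 3, limma adjusted p = 0.000646), Ncapd3 from 6.90 ± 0.120 to 4.40 ± 0.136 FPKM and Smc2 from 31.5 ± 0.859 to 21.0 ± 0.933 FPKM. Topbp1, a scaffold of the response to stalled replication, fell from 9.55 ± 0.193 to 6.88 ± 0.0887 FPKM.

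Genes that serve cytokinesis but also work outside it gave other counts. Falls made up 5.88% of the contractile ring list, 0% of the abscission list and 9.09% of the tubulin list. Over all tested genes 4.64% fell and 4.6% rose, so the number of calls in lists of this size is near the background. The calls named below were not equally stable. Under 14 alternative settings Diaph3 and Tubb5 lost 0 calls, while Chmp4b lost 10. Of 17 contractile ring genes 1 fell and 1 rose (median 0.01), and the median turned to -0.03 on the TPM scale, -0.02 over plain read sums and -0.03 with voom. On the TPM scale and over plain read sums 1 fell and 0 rose, and with voom 2 fell and 1 rose. The one that fell was Diaph3, a formin that builds ring actin, from 8.69 ± 0.174 to 5.76 ± 0.598 FPKM (SD, n = 3, limma adjusted p = 0.00720). Of 17 abscission and ESCRT-III genes 0 fell and 1 rose (median 0.06), Chmp4b, from 128 ± 1.61 to 143 ± 3.34 FPKM (limma adjusted p = 0.0304), while Chmp2a stood at 79.2 ± 6.07 and 87.2 ± 5.36 FPKM (adjusted p = 0.277). The call of Chmp4b was lost on the TPM scale, over plain read sums and when any single library but Fbxw11 library 3 was left out (adjusted p up to 0.122). Of 11 tubulin genes 1 fell and 0 rose (median -0.06), while 2 fell on the TPM scale and over plain read sums (medians -0.12 and -0.08) and 3 with voom (median -0.11). The one that fell on the FPKM scale was Tubb5, a main β-tubulin of dividing cells, from 153 ± 0.602 to 117 ± 3.71 FPKM (limma adjusted p = 0.00173), while Tuba1b stood at 121 ± 15.1 and 102 ± 2.82 FPKM (adjusted p = 0.140). Tubulin genes have near-identical copies, and no source used here says how shared reads were counted, so their separate values are uncertain.

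**Figure D5:**
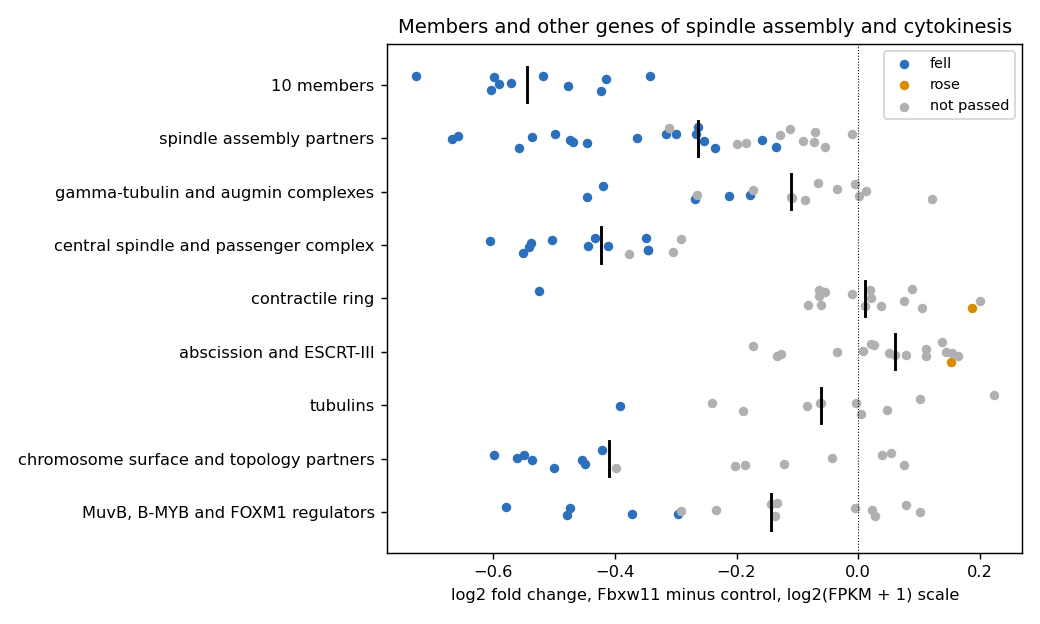
Log2 fold change (Fbxw11 minus control, log2(FPKM + 1) scale) of the 10 members and of each tested gene in 8 lists of the pathway, in blue where the gene fell, orange where it rose and grey where it did not pass limma's test, with a black bar at each median. Medians run from -0.54 for the members and -0.42 for the central spindle list to 0.01 for the contractile ring (below 0 on the TPM scale, over plain read sums and with voom) and 0.06 for the abscission list.

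Of 15 tested genes of the regulators that act on CHR and CCAAT promoters 5 fell and 0 rose (median -0.14). The falls numbered 7 on the TPM scale (median -0.24), 7 over plain read sums (median -0.18) and 8 with voom (median -0.28). Foxm1, the activator of late cell cycle genes, fell from 5.14 ± 0.150 to 3.11 ± 0.0890 FPKM (SD, n = 3, limma adjusted p = 0.00142) and Mybl2, which encodes B-MYB, from 6.70 ± 0.537 to 4.54 ± 0.0553 FPKM. Rbl1, the pocket protein p107, fell from 11.04 ± 0.447 to 7.65 ± 0.638 FPKM, and Tfdp1, the partner of E2F factors, from 26.3 ± 0.275 to 21.2 ± 0.0986 FPKM. These are transcript levels, and the amount or activity of the proteins was not measured. Whether these regulators fell before, with or after the members cannot be told from these libraries.

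The protein-coding genes outside the members whose log2(FPKM + 1) followed the mean standardized profile of the 10 members most closely over the 6 libraries were Ncapg2, Ly6e, Dlgap5, Topbp1 and Cenpe (Pearson r 0.999, 0.999, 0.998, 0.998 and 0.998, given as a description). All 6 libraries share the group difference, which fixes much of this likeness. Ly6e, a surface protein gene induced by interferon, is no cell cycle gene by its known role. It stood at 60.4, 63.7 and 59.8 FPKM in control libraries 1 to 3, against 30.2, 30.2 and 30.7 FPKM in Fbxw11 libraries 1 to 3. Cenpe, a kinesin of the kinetochore, stood at 10.6, 11.1 and 10.7 FPKM in the control libraries, against 6.90, 6.93 and 7.07 FPKM in the Fbxw11 libraries.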

How the data were processed

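RNA sequencing measured 6 libraries of RAW264.7 cells, 3 per group. The deposited table holds FPKM values made by the authors, 1 column per library, with gene name, length and coordinates. The submitters' processing notes name the build mm10, and no source used here gives the aligner, counter, annotation or strand setting. Of 52036 gene identifiers shared with a GENCODE annotation of that build, 2.76% had the same start and end and 96.8% the same distance between them, as did all 10 members. The coordinates are thus shifted against that annotation, so the table's coordinates are not printed. Reads per gene were recovered from FPKM times gene length, which moved in equal steps within a library (100% of values came within 0.02 reads of a whole number). The authors' divisor was 1.014 to 1.018 times the sum of these reads in control and 0.987 to 0.993 times in Fbxw11 libraries, which raises FPKM in the Fbxw11 group against plain sums.

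Values were analysed as log2(FPKM + 1), a scale that understates the change of low genes, with limma 3.58.1 in R 4.3.3 (lmFit, eBayes with trend, two-sided, no covariate) over genes averaging 1 FPKM or more, with Benjamini-Hochberg adjustment over all of them and a threshold of 0.05. "Rose" and "fell" describe genes past it. Ratios of partners used exact permutation tests. Of the other pathway genes, the text names up to 4 per list with the smallest p among those past the threshold, filled up to 2 with the most abundant, and every one that rose except 1 contractile ring gene, whose values are not reported here; genes outside this rule are said to be so, and Oip5 and Rccd1 are named for their overlap. The members, lists, pairs and motifs were chosen with earlier results of these data known. The procedure was tested on simulated data. Alternatives were another pseudocount, no filter and a stricter filter, the TPM scale, plain read sums, limma's voom on recovered reads, the replicate number as a block, and leaving out libraries. Voom stood in for the count models planned on recovered reads, which were not run.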

Additional observations from a re-analysis of the deposited data

How the results depend on the processing

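All 10 members kept their direction in each of the 136 values computed under 14 alternatives, and 124 of these kept the call. The other 12 were calls lost by Prc1 (8) and Ect2 (4). With a mean of at least 5 FPKM required, 6 members were tested and all 6 fell. Without a filter, 9 members fell and 596 genes were called instead of 1007; with voom on recovered reads, 10 fell and 1559 genes were called. Voom, plain read sums and leaving out library 3 of both groups were chosen after seeing the data. Leaving out each library in turn gave 8 to 10 members, 31 to 40 other pathway genes that fell, and 409 to 801 genes called. The log2 fold change of Fbxw11 stayed between 2.84 and 2.91. The balance of directions moved with scaling, from 501 rises and 506 falls to 348 and 712 on the TPM scale and 381 and 691 over plain read sums.

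With the replicate number as a block, 9 of the 10 members fell, Prc1 lost its call (adjusted p = 0.0733) 621 genes were called and none of the other pathway genes rose. Deviations of same-numbered libraries from their group means correlated at 0.04, 0.04 and 0.19 across genes, and not every library correlated best with its own number, so the numbers were not taken to pair the libraries. The 0.19 between the libraries numbered 3 was the highest value. Control library 1 with Fbxw11 library 3, and control library 3 with Fbxw11 library 2, each stood at -0.16. Whether the libraries numbered 3 share a batch was not tested. The count tests planned on recovered reads were not run. Each member rested on 196 to 4268 reads per library; without molecular identifiers, reads are not independent molecules.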
